A study of Rattus norvegicus with 19 samples.

Results

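The results describe the cortex of rats after the blood-brain barrier was opened with deoxycholate (DOC), followed over 3 times. They rest on 4 of the 19 arrays of the study, chosen by their titles: 3 arrays from cortex treated with DOC, taken after 7 h, 24 h and 48 h, and the array of a sham-operated animal taken after 24 h. All 4 came from adult male Wistar rats, whose somatosensory cortex was either bathed with artificial cerebrospinal fluid holding 2 mM DOC or sham-operated. Total RNA of each sample was labelled with biotin and hybridised to 1 Affymetrix array. A further 6 arrays of the same set, 3 after albumin (0.1 mM) and 3 after TGF-beta1 (10 ng/ml) at 8 h, 24 h and 48 h, supplied the spread for the tests together with the 3 DOC arrays. The remaining 9 arrays form a separate set. Each DOC time is a single array, so the time cannot be told apart from the animal it was taken from. A sham array was used at 24 h only, so at 7 h and 48 h the DOC effect cannot be told apart from the time since surgery. The labels of the sham array name the operation and no perfusion.

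The blood-brain barrier is formed by endothelial cells that are sealed by tight junctions and wrapped by pericytes and astrocyte endfeet, and it keeps blood proteins out of the brain. DOC is a bile salt with detergent properties that loosens this barrier. Serum proteins such as albumin then reach astrocytes, where albumin can act on receptors for TGF-beta, and microglia and astrocytes answer injury by producing cytokines, chemokines, cytoskeletal proteins and matrix.

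Signals are log2 probe set values, and a difference of 1 is a 2-fold difference in signal. The medians of the 4 arrays lay between 5.09 and 5.17, and the median correlation of each with the other arrays of its set, across probe sets, was 0.987 to 0.988. Of 14217 genes, 10018 were tested, namely those with 2 or more of the 10 arrays of the set over a log2 signal of 4. The 4 arrays carried markers of brain cell types: 5 neuronal markers lay between 10.42 and 14.58, 4 oligodendrocyte markers between 9.87 and 14.66, and 5 astrocyte markers between 5.64 and 13.51. Among regional markers, the 3 hippocampal ones, Prox1, Wfs1 and Zbtb20, were above 4 on all 4 arrays, between 7.05 and 9.93. The source of these hippocampal signals was not tested. The choroid plexus markers Kl and Folr1 were not above 4 on any of the 4 arrays. Of 4 striatal markers, Drd2 and Adora2a were not above 4 on any of them, while Drd1 had 5.04, 6.20 and 6.27 with DOC and 5.64 in the sham, and Ppp1r1b had 8.51, 9.63 and 7.42 with DOC and 8.69 in the sham. The choroid plexus transcript Ttr was at 5.63, 3.35 and 3.36 after 7 h, 24 h and 48 h of DOC and at 5.31 in the sham. The T cell marker Cd3e stayed at 3.55 to 3.86 on all 4 arrays, below the limit of 4.

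Averaged over the 3 times, DOC cortex had 32 genes with higher signal than the sham and 15 with lower signal. The risers were led by genes of monocyte recruitment, phagocytes and injury responses, among them Ccl2, Spp1, Cd14, Hmox1 and Lgals3, while the fallers included neuronal genes such as Psd, Camk2n1 and Ngef. These 47 genes are 0.469% of the 10018 tested, with 0.319% higher and 0.15% lower, at an adjusted p under 0.05 in limma's two-sided test with Benjamini-Hochberg adjustment, in which the single sham was taken to vary as the treated arrays do. Shams of the separate set differed widely on some of these genes, with 3.10 and 7.63 for Spp1 and 2.38 and 6.28 for Cd14. They differed less on others, with 3.83 and 4.67 for Hmox1 and 7.58 and 7.12 for Psd. The SE of the fit does not include this spread between shams. Without adjustment, 18.7% of all genes passed 0.05. On each of the 47 genes the 3 DOC arrays lay on the same side of the sham, against 23.7% of all genes with the 3 arrays above it and 29.1% with the 3 below it. The signal was at least 2-fold from the sham at all 3 times for 36 of the 47. Both counts follow largely from the selection, because the test picks genes with a large mean difference from this sham. In 17 of the 32 risers the sham signal was not above 4, close to the floor of the array. No fold is given for those, and their log2 differences are fitted values whose size depends on that floor, as does their order. The 47 genes kept their sign when any of the 9 treated arrays was left out, but the number called then ranged from 1, without the 8 h TGF-beta1 array, to 202, without the 48 h DOC array. The sham stayed in each of these fits, so they do not test it. When DOC against sham was fitted on these 4 arrays alone, limma called 0 genes. In that fit 509 of the 10018 genes passed an unadjusted p of 0.05, a share close to the 0.05 that chance gives.

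The largest fitted difference among the called genes was that of Ccl2, the chemokine that draws monocytes. Ccl2 had log2 signals of 8.60, 10.72 and 9.56 after 7 h, 24 h and 48 h of DOC, against 2.83 in the sham. All 3 DOC arrays were far above the sham, and the mean difference was 6.79 ± 0.62 (SE of the fit, 3 DOC arrays and 1 sham; adjusted p = 0.0295 in limma). Because these are pieces of tissue, fewer or more cells of a type and less or more RNA per cell cannot be told apart, here and below. Spp1, which encodes the secreted glycoprotein osteopontin, had 6.31, 9.22 and 12.84 with DOC, against 2.97 in the sham. Its signal was higher at each later time, and the mean difference was 6.49 ± 0.92 (adjusted p = 0.0458 in limma). An adjusted p of 0.0458 or 0.0499 in the same limma fit also holds for every gene said to have risen or fallen in the following paragraphs unless another value is printed.

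Receptors and enzymes of innate immune cells rose as well. Cd14, the coreceptor for bacterial lipopolysaccharide, had 5.67, 8.13 and 7.95 with DOC, against 2.17 in the sham, a difference of 5.07 ± 0.57. Tlr2, a receptor for bacterial lipoproteins, lay lower on the scale, at 3.68, 3.83 and 4.38 with DOC and 2.31 in the sham. Tifa, an adaptor that activates NF-kappaB, had 7.72, 7.44 and 6.79 with DOC, against 5.65 in the sham, and was 3.17-fold higher on average. The NADPH oxidase of phagocytes was represented by 2 subunits. Its catalytic subunit Cybb had 2.57, 4.59 and 7.53 with DOC and 2.32 in the sham, so that the 7 h array was near the sham and the 48 h array far above it. Ncf4, a cytosolic subunit, had 3.27, 4.11 and 3.90 with DOC, against 2.06 in the sham. Lcp1, an actin-bundling protein of leukocytes, had 7.13, 8.42 and 9.20 with DOC, against 5.68 in the sham, and was 5.95-fold higher on average. Ifi30, a lysosomal thiol reductase used in antigen processing, had the smallest difference among the risers, 1.13 ± 0.16, with 7.54, 7.84 and 9.41 in DOC cortex and 7.14 in the sham.

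Single genes with roles in protease inhibition, clotting and cell death were also among the risers, while 0 of the 13 tested genes of the protease and inhibitor group rose. Slpi, an inhibitor of neutrophil elastase, had 6.01, 7.46 and 7.76 with DOC, against 2.72 in the sham. Fgl2, a membrane prothrombinase, was nearly level over time, with 7.83, 8.16 and 7.64 after DOC and 3.72 in the sham (difference 4.15 ± 0.40, adjusted p = 0.0359 in limma). The 3 other probe sets of Fgl2 above the low-signal limit were higher with DOC too, by 2.04 to 3.91. Casp4, an inflammatory caspase, had 4.68, 5.73 and 5.47 with DOC, against 2.51 in the sham. Bcl2a1, a survival protein of the BCL2 family, had 5.84, 5.12 and 7.33 with DOC and 3.04 in the sham. Anxa1, a phospholipid-binding annexin that dampens inflammation and takes part in membrane repair, had 7.56, 8.36 and 9.74 with DOC, against 5.82 in the sham, and was 6.65-fold higher on average.

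Hmox1, the enzyme that degrades haem, had 7.52, 9.96 and 8.21 after 7 h, 24 h and 48 h of DOC, against 3.58 in the sham. Its difference was 4.98 ± 0.70, and the 24 h array was the highest. Red cell transcripts were also higher on these arrays without passing the test: Hbb, beta globin, had 13.43, 12.99 and 11.94 with DOC and 11.35 in the sham, and Alas2, the haem synthesis enzyme of red cells, had 6.38, 5.97 and 4.14 with DOC and 3.61 in the sham. The part of blood in the Hmox1 difference was not tested.

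Among genes of reactive astrocytes, 4 of the 20 tested rose, namely Vim, Lgals3, Stat3 and Cd14, and 0 fell, beside 0.469% of all genes called. Vim, an intermediate filament protein of reactive and immature astrocytes, had 9.14, 11 and 12.30 with DOC, against 8.80 in the sham, and was 4.02-fold higher on average. Lgals3, a galectin of activated glia and macrophages, had 6.90, 10.01 and 11.51 with DOC, against 5.66 in the sham, a 14.0-fold higher mean. Stat3, the transcription factor that drives astrocyte reactivity downstream of interleukin 6, had 8.70, 9.72 and 8.98 with DOC and 7.48 in the sham, 3.15-fold higher on average. Its other probe set above the limit differed by 2.71. Vim and Lgals3 were nearest to the sham at 7 h and highest at 48 h, whereas Stat3 was highest at 24 h. Gfap, the filament protein most used to mark astrocytes, did not pass: it had 10.53, 13.49 and 13.44 with DOC and 12.07 in the sham, below the sham at 7 h and above it afterwards.

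The neuropeptide gene Calca, which encodes calcitonin and calcitonin gene-related peptide, was higher at each later time, with 5.23, 7.69 and 9.83 in DOC cortex and 4.39 in the sham. Its mean was 9.15-fold higher (adjusted p = 0.0295 in limma), and its other probe set above the limit differed by 2.08. The basement membrane gene Nid1 had 7.40, 7.68 and 8.09 with DOC, against 6.25 in the sham, but its other probe set went the other way, by -0.52. Col6a3, a collagen VI chain, had 2.96, 4.49 and 5.49 with DOC and 2.50 in the sham. Ano6, a phospholipid scramblase of the plasma membrane, had 8.22, 9.07 and 8.36 with DOC and 6.65 in the sham, 3.74-fold higher on average. Clic1, an intracellular chloride channel protein, had 8.09, 9.46 and 10.45 with DOC and 7.37 in the sham. Baz1a, a chromatin remodelling subunit, had 6.53, 7.41 and 6.23 with DOC and 3.88 in the sham. Rgs16, which shortens G protein signalling, ran against the common time course, with 6.47, 5.11 and 4.18 after DOC and 3.57 in the sham. The remaining risers were Otulinl, Ubn1 (adjusted p = 0.0295 in limma), Chchd7, the zinc transporter Slc30a7, the galactosyltransferase Ggta1, the membrane protein Cmtm6 and the actin-capping protein Tmod3, with mean differences between 1.22 and 2.30. The other probe set of Chchd7 differed by -0.05 and that of Ubn1 by 0.51. Of all 32 risers, 19 had their highest DOC signal at 48 h, 9 at 24 h and 4 at 7 h.

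The largest fitted fall among the called genes was that of the probe set assigned to Brcc3-ps7, a pseudogene of the deubiquitinase gene Brcc3, whose signal cannot be told apart from that of related copies on an array. It had 3.00, 2.11 and 2.13 with DOC and 8.35 in the sham, a difference of -5.93 ± 0.29 (adjusted p = 0.00171 in limma). All 3 DOC arrays were under the limit of 4, so the size of this fall depends on the floor. Psd, an exchange factor for the small GTPase ARF6 in neuronal dendrites, had 4.63, 4.48 and 4.64 with DOC and 6.70 in the sham, nearly the same at each time and 4.33-fold lower on average. Camk2n1, an inhibitor of the kinase CaMKII, had 10.59, 10.32 and 9.89 with DOC and 11.60 in the sham, and its other probe set differed by only -0.18. Ngef, a guanine exchange factor that acts with Eph receptors in neurons, had 10.28, 9.74 and 9.65 with DOC, against 11.09 in the sham. Both were lowest at 48 h.

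Other fallers had metabolic, trafficking or signalling roles. Ddc, the decarboxylase that makes dopamine and serotonin, had 2.86, 2.68 and 5.35 with DOC and 6.13 in the sham, so the 48 h array stood nearest to the sham. G0s2, an inhibitor of triglyceride lipase, had 4.87, 4.96 and 5.79 with DOC and 7.59 in the sham, 5.21-fold lower on average. Lgals9, a galectin, had 3.66, 3.74 and 4.75 with DOC and 6.57 in the sham, in the direction opposite to Lgals3. Mfge8, a bridge between dying cells and phagocytes that astrocytes secrete, had 7.01, 6.83 and 6.45 with DOC, against 8.27 in the sham. Klc4, a kinesin light chain, had 5.83, 6.35 and 6.52 with DOC and 7.81 in the sham. Fbxl19, Cyp4f4, Cdh20, Ltk, Osbpl3 and Efhd1 completed the 15, with mean differences between -2.20 and -1.35.

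**Figure D1:**
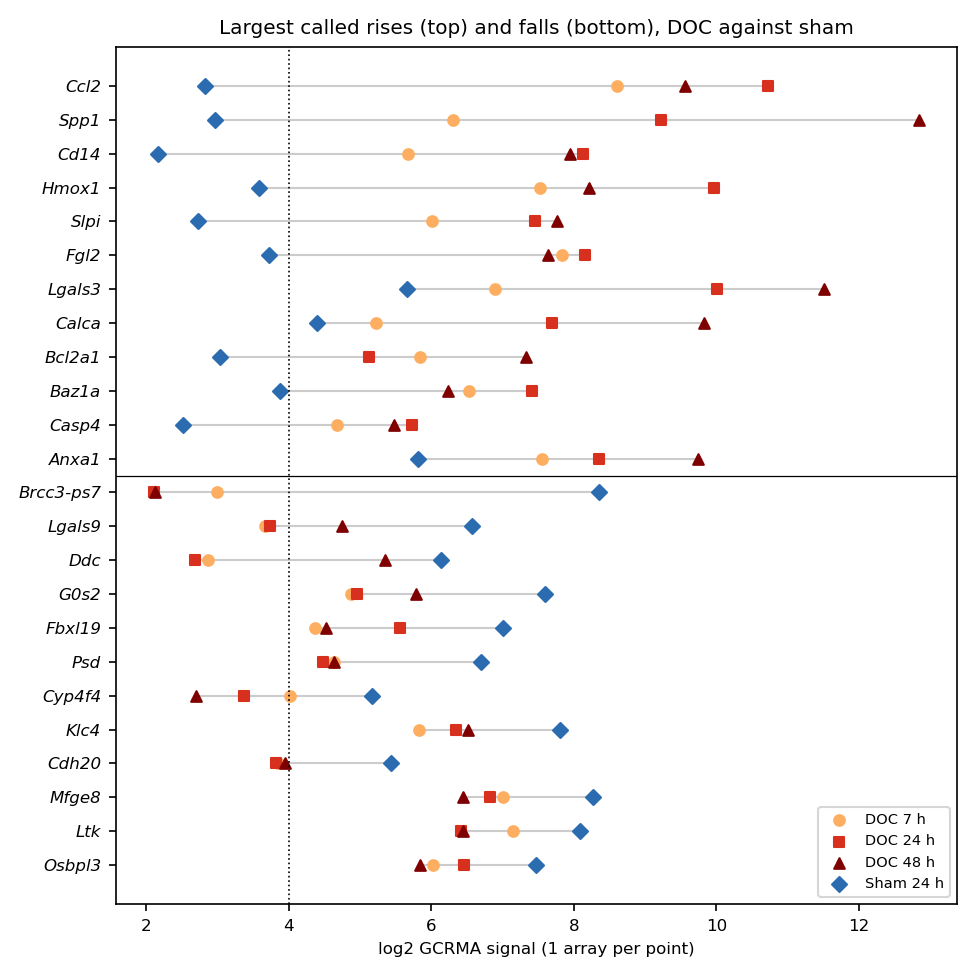
Log2 signal (x axis) of the genes with the 12 largest rises and 12 largest falls among the 47 that passed the test, on the 3 DOC arrays and the sham, with 1 array per point and a dotted line at the low-signal limit of 4. For Ccl2 the DOC points lie between 8.60 and 10.72 and the sham at 2.83, while for Brcc3-ps7 the DOC points lie between 2.11 and 3.00 and the sham at 8.35.

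Most genes that differed from the sham on a DOC array did so at some times only. After 7 h, 420 genes were at least 2-fold higher than the sham (4.19% of the 10018) and 435 at least 2-fold lower (4.34%). After 24 h there were 640 higher (6.39%) and 496 lower (4.95%), and after 48 h 571 higher (5.7%) and 411 lower (4.1%). These counts compare single arrays and carry no test. The 2-fold limit was passed upward at all 3 times by 106 genes (1.06%) and downward by 88 (0.878%). It was passed upward at 1 time only by 158 genes at 7 h, 284 at 24 h and 299 at 48 h. Another 37 genes were at least 2-fold higher at 1 time and at least 2-fold lower at another. The median over all genes was -0.06, -0.02 and -0.01 on the 3 DOC arrays minus the sham.

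**Figure D2:**
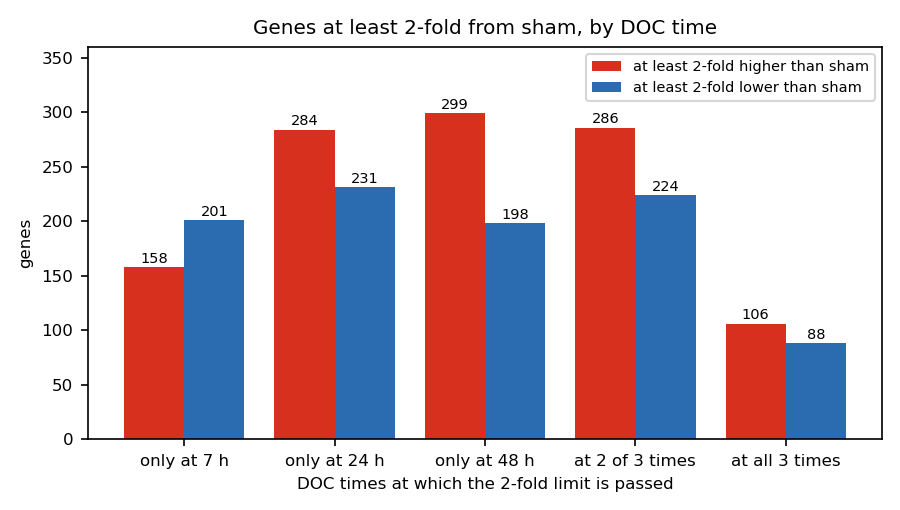
Number of genes (y axis) at least 2-fold higher or lower than the sham, by the DOC times at which the limit was passed (x axis). Genes past the limit at 1 time only outnumber the 106 higher and 88 lower at all 3 times.

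Some genes were far from the sham at every DOC time and still missed the test. Lcn2, the acute-phase protein lipocalin 2, had 6.59, 7.80 and 8.80 with DOC and 2.11 in the sham, with an adjusted p of 0.101 in limma. Timp1, an inhibitor of matrix metalloproteinases, had 6.70, 10.09 and 10.59 with DOC and 4.15 in the sham. Mmp9, a metalloproteinase that cleaves basement membrane, had 6.88, 8.76 and 6.03 with DOC and 3.27 in the sham. Fn1, fibronectin, had 8.77, 8.91 and 9.22 with DOC and 6.39 in the sham. On the low side, Camk2a, the main CaMKII subunit of excitatory neurons, had 10.41, 10.34 and 8.12 with DOC and 12.22 in the sham. Nr4a1, an activity-regulated nuclear receptor, had 8.37, 7.68 and 6.82 with DOC and 10.37 in the sham. The probe set assigned to RT1-T24-4, an MHC class I gene, had 2.40, 2.92 and 2.53 with DOC and 5.95 in the sham.

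Gene groups were described by the median of their tested members on each DOC array minus the sham. Reactive astrocyte genes had medians of 0.90, 2.72 and 2.91 at 7 h, 24 h and 48 h. Phagocyte activation genes had 0.25, 1.36 and 2.94, and 4 of the 17 tested rose (Cd14, Lgals3, Spp1 and Cybb), where 0.469% of all genes were called. Cytokine and chemokine genes had their highest median at 7 h, with 2.10, 0.31 and 0.50, and 2 of 20 rose (Ccl2 and Spp1), beside the same 0.469%. Genes of membrane repair and cell death had 0.04, 1.34 and 1.51, and 2 of 20 rose (Anxa1 and Casp4), again beside 0.469%. Cell cycle genes had 0.09, 0.12 and 2.18, and 0 of 18 passed the test on the mean of the 3 times. Oxidative phosphorylation genes stayed near the sham, with medians of -0.09, -0.17 and -0.01. These groups were chosen with results of the same data known, so the medians only describe them.

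**Figure D3:**
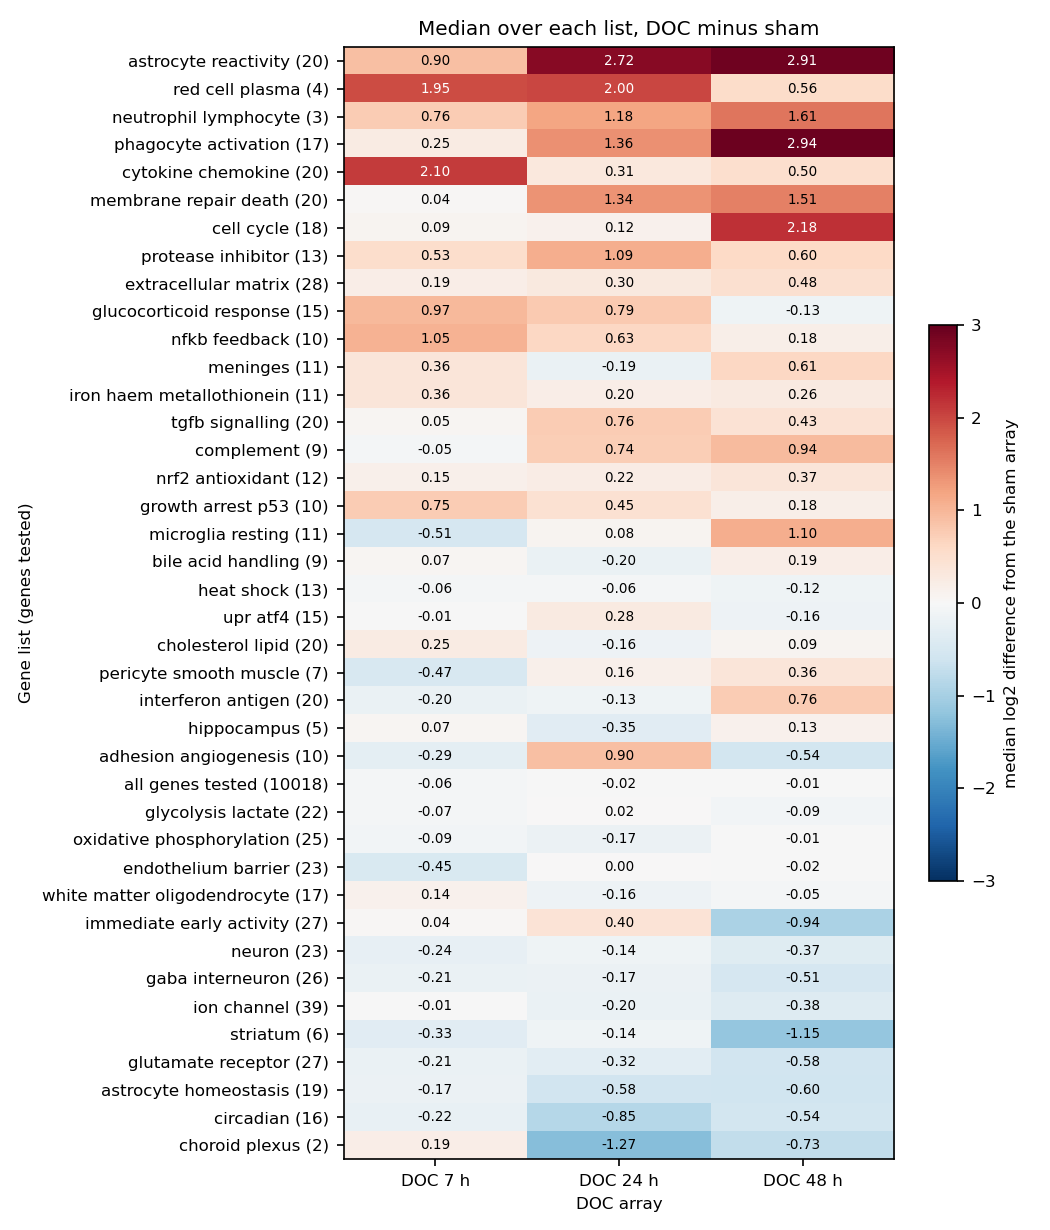
Median log2 difference from the sham over the tested genes of each group (rows, with the number of genes tested) on the 3 DOC arrays (columns); red is higher and blue lower than the sham. Astrocyte reactivity reaches 2.91 and phagocyte activation 2.94 at 48 h, while cytokine and chemokine genes are highest at 7 h with 2.10.

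The 7 h array carried an early cytokine signal that the later arrays lacked. Tnf, tumour necrosis factor, had 6.47, 2.49 and 2.47 with DOC at 7 h, 24 h and 48 h and 2.03 in the sham. Il1b, interleukin 1 beta, had 7.19, 3.65 and 3.72 with DOC and 3.59 in the sham. Ccl3, a chemokine of microglia and macrophages, had 7.03, 2.72 and 3.43 with DOC and 2.55 in the sham. Each of the 3 stood above the limit of 4 at 7 h only, while Ccl2 was above it at all 3 times. Cxcl1, a chemokine for neutrophils, had 5.94, 2.81 and 4.12 with DOC and 2.50 in the sham. Il6, interleukin 6, had 3.99, 2.43 and 2.42 with DOC and 2.33 in the sham, not above 4 on any of the 4 arrays. The neutrophil transcript S100a9 had 7.12, 6.08 and 6.52 with DOC and 4.90 in the sham. Its partner S100a8 stayed close to the limit, with 4.10, 3.63 and 3.62 after DOC and 3.34 in the sham. Of the 20 cytokine and chemokine genes, 13 were at least 2-fold higher than the sham at 7 h, 7 at 24 h and 7 at 48 h, beside 4.19%, 6.39% and 5.7% of all genes. Tnf and Il6, both among the 20, were tested only because of the 7 h or 8 h arrays of the 3 agents.

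A time change was tested as the effect shared by DOC, albumin and TGF-beta1, 48 h against 7 or 8 h, which does not involve the sham. In limma this test passed upward for 392 genes (3.91%) and downward for 118 (1.18%), while 20.7% of all genes passed an unadjusted p of 0.05. Tnf was lower at the late time by this test, with a change of -2.57 ± 0.52 (adjusted p = 0.041 in limma), whereas Il1b did not pass. In this set Tnf was above the limit of 4 only on the 7 h DOC and 8 h albumin arrays. The filter on low signals thus partly fixes its early difference. Glucocorticoid-responsive genes showed a further early pattern, with medians of 0.97, 0.79 and -0.13, and 6 of the 15 tested were lower at the late time over the 3 agents, beside 1.18% of all genes. Fkbp5, a chaperone of the glucocorticoid receptor, had 9.83, 7.88 and 7.44 with DOC and 7.00 in the sham. Pdk4, a kinase that restrains pyruvate oxidation, had 8.21, 6.59 and 5.67 with DOC and 5.19 in the sham. Depp1, a target of FOXO factors, had 8.26, 3.54 and 4.43 with DOC and 3.92 in the sham. In the shared test Fkbp5 changed by -2.08 ± 0.17 and Depp1 by -3.34 ± 0.40 (adjusted p = 0.00203 and 0.00657 in limma).

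The 24 h array had its own set of high genes. Sprr1a, a cornified envelope protein that injured neurons also make, had 3.08, 11.48 and 7.39 with DOC and 3.02 in the sham, at the level of the sham at 7 h and bright at 24 h. Tgfbi, a matrix protein induced by TGF-beta, had 4.47, 8.39 and 4.10 with DOC and 2.77 in the sham. Pmepa1, a feedback inhibitor of TGF-beta signalling, had 6.91, 10.32 and 7.32 with DOC and 7.52 in the sham. Inhba, the activin A subunit, had 9.80, 12.38 and 8.27 with DOC and 7.63 in the sham. Smad7, the inhibitory SMAD, had 6.12, 7.96 and 6.53 with DOC and 6.73 in the sham. Across the 20 tested genes of TGF-beta signalling the medians were 0.05, 0.76 and 0.43, and 3 of them were at least 2-fold higher than the sham at 7 h, 9 at 24 h and 2 at 48 h, beside 4.19%, 6.39% and 5.7% of all genes. At 7 h 3 of the 20 were at least 2-fold lower, beside 4.34%. None of the 20 passed the test on the mean of the 3 times in limma, and 1 had an unadjusted p under 0.05, beside 18.7% of all genes. Of the ligands, Tgfb1 had 3.78, 4.96 and 4.14 with DOC and 3.58 in the sham, and Tgfb2 had 7.96, 8.33 and 7.74 with DOC and 7.28 in the sham.

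Lower signals at 24 h were seen for Neurod1, a neuronal transcription factor, with 6.10, 3.70 and 7.91 after DOC and 8.02 in the sham. Klf15, a glucocorticoid-regulated transcription factor, had 8.73, 5.81 and 8.13 with DOC and 8.54 in the sham. Map2k6, a kinase that activates p38, had 8.06, 5.09 and 8.40 with DOC and 8.33 in the sham. In each of these the 48 h array lay near the sham again.

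Hspb1, a small heat shock protein of stressed astrocytes, was below the sham at 7 h and well above it afterwards. It had 4.40, 11.24 and 9.97 with DOC and 6.18 in the sham, and rose by 4.12 ± 0.53 over time in the shared test (adjusted p = 0.00906 in limma). The other tested heat shock genes mostly stayed near the sham, and the medians over the 13 were -0.06, -0.06 and -0.12. The inducible chaperone Hspa1a had 6.58, 5.65 and 5.55 with DOC and 5.78 in the sham. The promoter of Hspb1, from 250 bases before to 50 after its start at chr12:26432252-26432551 on the minus strand of GRCr8 (RefSeq), is shown because it holds 2 copies of the heat shock element core GAANNTTC, given in capitals.
Hspb1: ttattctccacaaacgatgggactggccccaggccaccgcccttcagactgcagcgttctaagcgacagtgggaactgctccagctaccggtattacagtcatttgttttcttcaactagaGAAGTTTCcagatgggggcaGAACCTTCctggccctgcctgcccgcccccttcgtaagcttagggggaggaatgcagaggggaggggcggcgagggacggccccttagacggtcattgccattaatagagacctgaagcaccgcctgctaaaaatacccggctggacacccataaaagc
Searched on both strands, this core was found in 7 of the 11 heat shock genes with a promoter in the table (63.6%), in 8.25% of all 24206 promoters and in 5.53% of those of tested genes. A match describes the letters only.

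The 48 h array was marked by proliferation genes. Cdk1, the kinase that drives entry into mitosis, had 2.74, 2.54 and 7.49 with DOC and 2.42 in the sham. Ccnb2, a mitotic cyclin, had 3.69, 3.56 and 7.99 with DOC and 3.37 in the sham. Top2a, the topoisomerase that untangles replicated DNA, had 3.06, 2.96 and 6.68 with DOC and 2.90 in the sham. At 7 h and 24 h these 3 genes were near the sham, and only the 48 h array was above the limit of 4. Mki67, a marker of dividing cells, had 2.71, 3.26 and 7.26 with DOC and 3.03 in the sham. Of 23 cell cycle genes on the array 18 were tested, and 8 of these, among them Cdk1, Top2a, Mki67 and Bub1, were tested only because of the 48 h arrays of the 3 agents. The filter on low signals thus partly fixes the late difference of these 8. Of the other 10, 7 were at least 2-fold higher than the sham on the 48 h DOC array, beside 5.7% of all genes, and 5 were higher at the late time in the test over the 3 agents, beside 3.91%. In that test Ccnb2, which is among the 10, changed by 3.53 ± 0.32 (adjusted p = 0.00276 in limma). Pclaf and Nuf2, which serve DNA replication and kinetochores, showed the same course: Pclaf had 2.55, 2.50 and 7.84 with DOC and 2.43 in the sham, and Nuf2 had 1.96, 2.29 and 6.61 with DOC and 2.24 in the sham. Both were tested only because of the 48 h arrays, so the filter partly fixes their late difference too.

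Promoters of Cdk1 (chr20:19265043-19265342, plus strand), Ccnb2 (chr8:79981609-79981908, minus strand) and Top2a (chr10:84473044-84473343, minus strand) of GRCr8, from RefSeq, are shown because these genes moved together at 48 h. Capitals mark TTTGAA, the core of the cell cycle genes homology region, and CCAAT, the box bound by NF-Y, on either strand.
Cdk1: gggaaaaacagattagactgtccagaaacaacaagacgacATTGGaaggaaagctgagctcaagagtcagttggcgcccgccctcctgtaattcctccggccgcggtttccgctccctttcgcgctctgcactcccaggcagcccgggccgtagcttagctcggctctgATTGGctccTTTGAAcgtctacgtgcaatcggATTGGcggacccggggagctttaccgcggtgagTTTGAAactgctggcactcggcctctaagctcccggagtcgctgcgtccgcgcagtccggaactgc
Ccnb2: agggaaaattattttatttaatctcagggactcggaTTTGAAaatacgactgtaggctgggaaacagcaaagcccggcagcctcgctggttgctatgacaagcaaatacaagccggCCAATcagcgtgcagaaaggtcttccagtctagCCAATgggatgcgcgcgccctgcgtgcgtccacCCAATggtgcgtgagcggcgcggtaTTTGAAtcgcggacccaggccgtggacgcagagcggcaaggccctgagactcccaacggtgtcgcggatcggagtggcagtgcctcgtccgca
Top2a: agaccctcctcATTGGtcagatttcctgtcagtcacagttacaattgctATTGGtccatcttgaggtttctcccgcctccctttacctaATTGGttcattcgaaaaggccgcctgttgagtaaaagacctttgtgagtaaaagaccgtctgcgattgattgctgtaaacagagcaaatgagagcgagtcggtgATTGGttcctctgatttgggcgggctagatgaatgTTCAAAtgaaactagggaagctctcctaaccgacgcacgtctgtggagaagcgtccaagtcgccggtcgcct
Of the 18 tested cell cycle genes 13 had a promoter in the table, and 6 of these held TTTGAA (46.2%), against 18.1% of all promoters and 10.7% of those of tested genes. CCAAT was found in 10 of the 13 (76.9%), against 37.8% and 38.0%. Both were found in 5 of the 13 (38.5%), against 7.33% of all promoters. These shares describe the windows and carry no test.

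**Figure D4:**
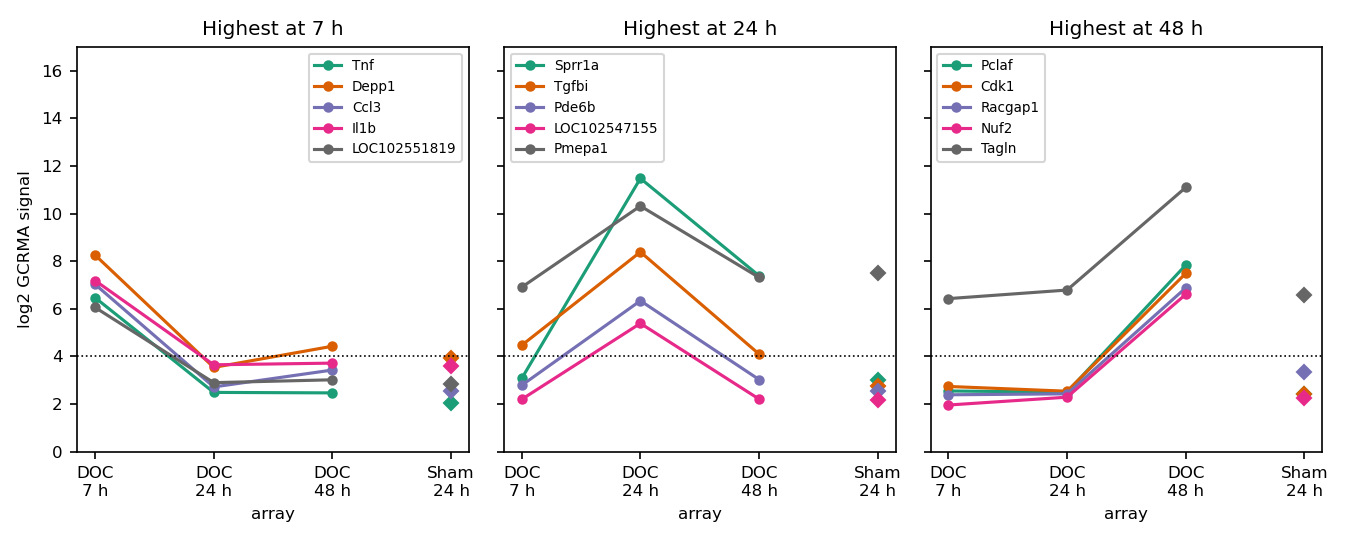
Log2 signal (y axis) on the 3 DOC arrays, joined by lines, and on the sham (diamonds) for the 5 genes per panel that stood out most at 7 h, 24 h or 48 h; the dotted line is the low-signal limit of 4. Tnf is at 2.49 at 24 h, Sprr1a peaks at 11.48 at 24 h, and Cdk1 reaches 7.49 at 48 h only.

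Microglial and phagocyte genes also stood highest at 48 h. P2ry12, a purine receptor of resting microglia, had 7.58, 7.83 and 9.97 with DOC and 8.88 in the sham. Aif1, which encodes the microglial protein Iba1, had 5.0, 7.14 and 8.23 with DOC and 6.32 in the sham. Both were below the sham at 7 h and above it at 48 h. Over the 11 genes of the microglia group the medians were -0.51, 0.08 and 1.10, and 8 were higher at the late time in the test over the 3 agents, beside 3.91% of all genes. Itgam and Trem2, 2 of the 11, were tested only because of the 48 h arrays, and without them the count was 6 of 9. Cd68, a lysosomal marker of phagocytes, had 2.03, 2.13 and 4.96 with DOC and 2.02 in the sham. Like Itgam and Trem2, Cd68 was tested only because of the 48 h arrays. Gpnmb, a glycoprotein of lipid-laden phagocytes, had 8.00, 10.73 and 11.91 with DOC and 6.97 in the sham. The leukocyte phosphatase Ptprc had 5.58, 7.51 and 8.17 with DOC and 5.63 in the sham. Complement C1qc, part of the recognition unit of the classical pathway, had 5.69, 6.85 and 7.56 with DOC and 5.40 in the sham. In the shared test 5 of the 9 tested complement genes were higher at the late time, beside the same 3.91%. Without C3, tested only because of the 48 h arrays, the count was 5 of 8. Resident microglia and blood-derived cells share most of these genes, and their parts in the differences were not tested.

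Several matrix genes and the smooth muscle gene Tagln also stood highest at 48 h. Tagln, an actin-binding protein of smooth muscle, had 6.43, 6.79 and 11.10 with DOC and 6.57 in the sham. Acta2, smooth muscle actin, had 6.60, 6.45 and 6.60 with DOC and 6.24 in the sham, without the late signal, and Tagln was the only gene of the 7 tested in the pericyte and smooth muscle group at least 2-fold higher at 48 h. Lox, which crosslinks collagen, had 2.27, 4.59 and 5.97 with DOC and 2.32 in the sham. Col1a2 had 4.03, 3.22 and 6.49 with DOC and 3.80 in the sham, and Col3a1 had 4.57, 3.95 and 6.20 with DOC and 4.21 in the sham. Of 28 tested matrix genes 13 were at least 2-fold higher than the sham at 48 h and 2 at least 2-fold lower, beside 5.7% and 4.1% of all genes. Col1a1 and Ncan, 2 of the 28, were tested only because of the 48 h arrays, and without them 12 of 26 were higher. On the mean of the 3 times 1 of the 28 rose (Nid1), beside 0.469% of all genes called. These collagens are also made by meningeal fibroblasts. The 11 meningeal genes had medians of 0.36, -0.19 and 0.61, and Dcn, Lum, Col1a2 and Col3a1 were each highest at 48 h. Of the defining meningeal markers, Slc22a8 and Slc13a4 were not above 4 on any of the 4 arrays, and Ptgds was at 11.35, 10.40 and 10.40 with DOC and 11.50 in the sham. The part of meningeal tissue in the collagen signals was not tested.

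Activity-regulated genes had mixed signs at 7 h and 24 h and lay mostly below the sham at 48 h, with medians of 0.04, 0.40 and -0.94. Fos had 11.30, 11.32 and 8.07 with DOC and 10.76 in the sham. Egr2 had 9.83, 9.16 and 5.37 with DOC and 8.84 in the sham. Arc, a synaptic protein induced by activity, had 7.73, 9.59 and 5.85 with DOC and 9.47 in the sham. Fosb had 8.08, 7.30 and 3.14 with DOC and 3.37 in the sham. Of the 27 tested, 12 were at least 2-fold lower than the sham at 48 h, beside 4.1% of all genes, and 0 were 2-fold higher, beside 5.7%. At 24 h 10 were 2-fold higher and 4 lower, beside 6.39% and 4.95%. None passed the test on the mean of the 3 times in limma. At an unadjusted p under 0.05, 2 were higher and 4 lower, beside 18.7% of all genes in either direction. Bdnf, the neurotrophin, had 9.98, 9.89 and 7.18 with DOC and 8.12 in the sham. Ptgs2, the inducible cyclooxygenase, had 10.94, 12.75 and 9.71 with DOC and 9.74 in the sham.

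Genes of the barrier itself had a median below the sham at 7 h and near it at 24 h and 48 h. The tight junction gene Cldn5 had 9.65, 10.34 and 10.54 with DOC and 10.31 in the sham. Ocln had 4.90, 5.53 and 6.81 with DOC and 6.28 in the sham, and Tjp1 had 11.17, 11.67 and 11.06 with DOC and 11.08 in the sham. Cldn5 and Ocln were lowest at 7 h and were higher at the late time in the test over the 3 agents, by 1.10 ± 0.23 and 1.79 ± 0.18 (adjusted p = 0.0432 and 0.00378 in limma). Endothelial transporters differed from each other at the early times. The organic anion transporter Slco1a4, which carries bile acids, had 7.61, 6.94 and 10.44 with DOC and 10.25 in the sham. The efflux pump Abcg2 had 6.32, 4.31 and 7.52 with DOC and 7.39 in the sham, and the thyroxine carrier Slco1c1 had 8.60, 8.16 and 10.01 with DOC and 10.61 in the sham. At 48 h Slco1a4 and Abcg2 differed from the sham by 0.19 and 0.12 on the log2 scale. The glucose transporter Slc2a1 was at the level of the sham at 7 h and above it at 24 h, with 9.06, 10.63 and 8.42 after DOC and 9.01 in the sham. Of the 23 tested barrier genes 6 were at least 2-fold lower than the sham at 7 h and 4 at 24 h, beside 4.34% and 4.95% of all genes. At least 2-fold higher were 1 at 7 h and 3 at 24 h, beside 4.19% and 6.39%. In the time test over the 3 agents 7 of the 23 were higher at the late time and 1 lower, beside 3.91% and 1.18% of all genes. Of the same 23 genes 0 passed on the mean of the 3 times in limma, and their medians were -0.45, 0.00 and -0.02. At an unadjusted p under 0.05, 1 was higher and 6 lower, beside 18.7% of all genes in either direction. The angiogenic factor Angpt2, which loosens endothelial contacts, had 5.64, 7.22 and 3.93 with DOC and 3.05 in the sham.

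Several astrocyte genes of water, ion and glutamate handling stayed near the sham, while the median of their group lay below it. The water channel Aqp4 had 12.84, 12.40 and 13.04 with DOC and 12.80 in the sham. The gap junction gene Gja1 had 13.51, 13.37 and 13.42 with DOC and 13.50 in the sham, and the glutamate transporter Slc1a3 had 12.65, 12.96 and 12.62 with DOC and 12.86 in the sham. The potassium channel gene Kcnj10 was too dim to test, with 2.50, 3.34 and 3.33 after DOC and 4.05 in the sham. The connexin Gjb6 had 9.86, 8.11 and 7.61 with DOC and 8.89 in the sham. Ntsr2 had 10.08, 10.21 and 9.70 with DOC and 11.07 in the sham. Across the 19 tested genes of this group the medians were -0.17, -0.58 and -0.60. On all 3 DOC arrays 10 lay below the sham and 1 above, beside 29.1% and 23.7% of all genes. At least 2-fold lower were 3 at 24 h and 5 at 48 h, beside 4.95% and 4.1%, and 1 was 2-fold higher at 48 h, beside 5.7%. In limma 0 passed, with 1 higher and 7 lower at an unadjusted p under 0.05, beside 18.7% of all genes in either direction. Neuronal genes had medians of -0.24, -0.14 and -0.37 over 23 genes, and 12 of them lay below the sham on all 3 DOC arrays, beside 29.1% of all genes. Snap25, a core protein of vesicle release, had 14.47, 14.54 and 14.23 with DOC and 14.58 in the sham. Myelin genes stayed close to the sham, with medians of 0.14, -0.16 and -0.05.

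DOC was then set against the other agents, albumin and TGF-beta1, over the same 3 times, which leaves the sham out. In limma 3 genes (0.0299%) differed, 1 higher (0.00998%) and 2 lower (0.02%) with DOC, and 16.5% of all genes passed an unadjusted p of 0.05. The Brcc3-ps7 probe set, at 2.11 to 3.00 with DOC, was at 8.36, 8.63 and 8.10 with albumin and at 7.52, 7.17 and 7.01 with TGF-beta1. DOC was thus lower by 5.39 on the log2 scale (-5.39 ± 0.18, adjusted p = 0.000112 in limma). On the 9 arrays of the separate set this probe set ranged from 2.14 to 9.72 with a median of 8.62, so a signal as low as that of the DOC arrays also occurs without DOC. Psd, at 4.48 to 4.64 with DOC, was at 5.89, 6.25 and 5.49 with albumin and 6.73, 6.66 and 6.48 with TGF-beta1 (-1.66 ± 0.15, adjusted p = 0.0424 in limma). Ubn1, a subunit of the HIRA histone chaperone complex, had 10.05, 9.89 and 9.35 with DOC, 9.15, 9.22 and 8.62 with albumin, 8.55, 8.51 and 8.00 with TGF-beta1 and 8.00 in the sham. It was higher with DOC by 1.09 ± 0.09 (adjusted p = 0.0424 in limma), and the highest albumin array lay below the lowest DOC array. In 9 fits that each left out 1 of the treated arrays, Brcc3-ps7 passed in 9, Psd in 2 and Ubn1 in 1, with adjusted p up to 0.00383, 0.436 and 0.436 in limma, and each kept its sign. For 5 of the risers described above the differences of DOC from the other agents were -0.43 ± 0.24 for Lgals3, -0.41 ± 0.16 for Vim, -0.21 ± 0.18 for Calca, 0.12 ± 0.12 for Stat3 and -0.04 ± 0.19 for Lcp1. None of these 5 passed, which does not show that the agents act alike.

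**Figure D5:**
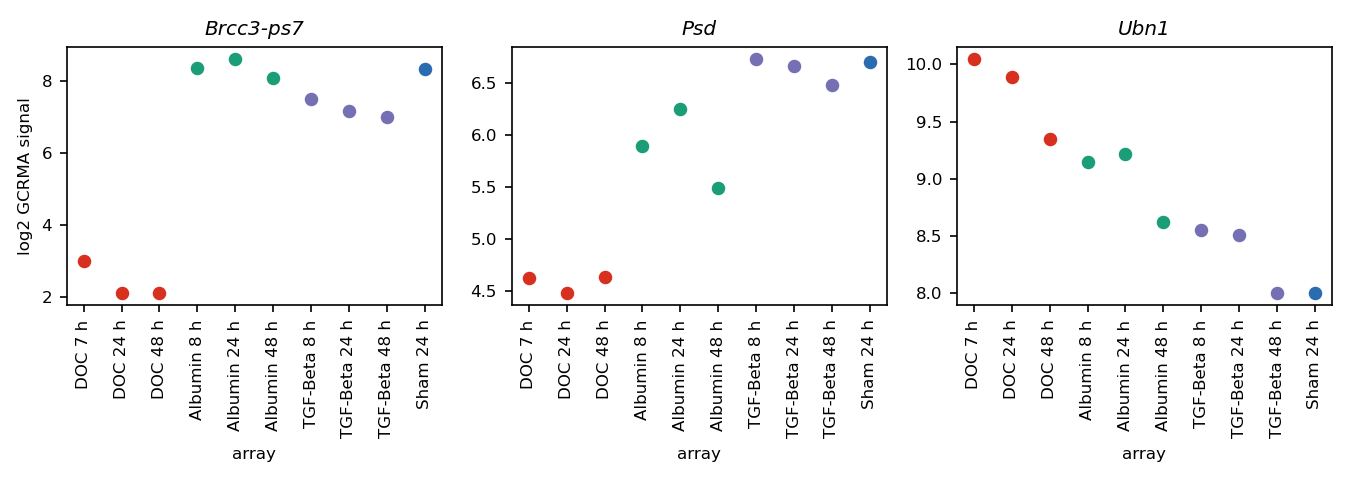
Log2 signal (y axis, its range set per panel) of Brcc3-ps7, Psd and Ubn1 on the 10 arrays of the set (x axis), coloured by agent. The 3 DOC arrays lie apart from the albumin and TGF-beta1 arrays in each panel, at 2.11 to 3.00 for Brcc3-ps7, 4.48 to 4.64 for Psd and 9.35 to 10.05 for Ubn1.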

How the data were processed

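Affymetrix arrays measured total RNA of rat cortex. The deposited log2 signals were made by the authors and deposited as such; the submitters' processing notes name GCRMA, with no version given in the sources used here. This method adjusts background and equalises array distributions, which compresses differences near the floor. Of 31099 probe sets, 20826 named 1 gene, 436 several and 9780 none, and 57 were controls; 20758 symbols were updated through Entrez identifiers to GRCr8. Each gene took the probe set of highest mean signal on all 19 arrays. Genes below log2 4 on all but 1 of the 10 set 1 arrays were dropped.

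An additive model of agent and time was fitted to those 10 arrays with limma 3.58.1 in R 4.3.3 (lmFit, eBayes), leaving 4 residual degrees of freedom, with Benjamini-Hochberg adjustment over 10018 genes. The sham, a single array, was taken to vary as the treated ones do. SE is the moderated standard error. The p-values rest on the residual spread of the treated arrays around the additive model, because no agent has a replicate at any time. Differences between agents in their time course are part of that spread, and the sham adds nothing to it. The number of arrays limits precision. On simulated data with 10018 genes, log2 shifts of 1, 2 and 3 for DOC against sham were recovered in 35.8%, 79.1% and 92.4% of genes. The simulation gave all 10 arrays, the sham included, independent values with the residual spread of the fit. It held no effect of time, albumin or TGF-beta1. These shares therefore hold only if the sham varies as the treated arrays do. Single DOC arrays were set against the sham without a test. The genes named were the 12 largest called changes per direction, genes far from sham at every time or at 1 time, genes apart from albumin and TGF-beta1, up to 3 per list and a fixed set. Other called genes and list members were added after their values were seen. The members and the 39 gene lists were chosen with earlier results of these data known. Alternatives changed the filter, probe set rule, scaling, prior, arrays and time term.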

Additional observations from a re-analysis of the deposited data

Results flagged for a closer look

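The following 3 results stood apart because DOC differed from the other 2 agents in a direct test of that difference. Brcc3-ps7 was lower with DOC than with albumin and TGF-beta1, at -5.39 on the log2 scale in limma. Psd was lower at -1.66. Ubn1 was higher at 1.09. With each of the 9 treated arrays left out in turn, Brcc3-ps7 passed in 9 fits, Psd in 2 and Ubn1 in 1, and the differences lay between -5.61 and -5.19, between -1.82 and -1.51 and between 1.03 and 1.12. The 3 DOC arrays were each outside the range of the 6 albumin and TGF-beta1 arrays for these genes. On the 9 arrays of the separate set the Brcc3-ps7 signal ranged from 2.14 to 9.72, Psd from 6.80 to 7.92 and Ubn1 from 7.21 to 8.81.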

How the results depend on the processing

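Every one of the 47 genes of DOC against sham kept its direction in every alternative that fitted it, but the number called depended on them. It was 75 without the filter, 1 with the mean of all probe sets of a gene and 526 with all 19 arrays and a set term. It was 3 without the time term and 0 with only the 3 DOC arrays and the sham. For DOC at 24 h, as estimated by the additive fit, it was 31. That estimate uses the other DOC times and the time effect shared with albumin and TGF-beta1. Leaving out each array in turn gave 1 to 202 genes: 6, 4 and 202 without the 7 h, 24 h and 48 h DOC arrays, 4, 19 and 15 without those of albumin and 1, 5 and 3 without those of TGF-beta1. In each of these 9 limma fits all 47 kept an unadjusted p under 0.05. The 47 were picked on these same arrays and the sham was in every fit. The kept directions and p-values are therefore largely fixed in advance and do not test the sham. DOC against albumin and TGF-beta1 gave 1 gene with the mean of probe sets, 206 with all 19 arrays, 1 against albumin alone and 1 to 49 with an array left out. For 48 h against 7/8 h over 3 agents the count was 286 without the filter, 931 with all 19 arrays and 167 to 573 with an array left out. Of each DOC array minus sham, 123, 241 and 234 genes at 7 h, 24 h and 48 h passed a 4-fold limit, and 2083, 2085 and 2251 passed the 2-fold limit against the mean of the set 2 shams. The causes were not tested beyond the change in arrays or genes itself. Limits are 1 array per time, 1 sham and signals near the floor. No paired analysis was possible because the arrays compared carry no replicate numbers.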

Other observations

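The growth arrest group had medians of 0.75, 0.45 and 0.18 at 7 h, 24 h and 48 h. Gadd45a, a stress sensor of DNA damage, had 9.56, 10.05 and 9.27 with DOC and 6.86 in the sham, and Gadd45b had 10.08, 10.77 and 6.98 with DOC and 6.62 in the sham. Cdkn1a, the cell cycle inhibitor p21, had 6.64, 7.01 and 4.64 with DOC and 4.31 in the sham. Of the 10 tested genes of the group 5 were at least 2-fold higher than the sham at 7 h, 4 at 24 h and 1 at 48 h, beside 4.19%, 6.39% and 5.7% of all genes. None passed in limma, and 3 had an unadjusted p under 0.05, beside 18.7% of all genes.

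Clock genes had medians of -0.22, -0.85 and -0.54 at 7 h, 24 h and 48 h. Their medians were also below this sham with albumin, at -0.18, -0.31 and -0.26 after 8 h, 24 h and 48 h. With TGF-beta1 they were -0.25, -0.40 and -0.36. The part of the single sham in these differences was not tested. Dbp, a clock output factor, had 8.71, 7.30 and 8.73 with DOC and 10.13 in the sham, and Nr1d1, a clock repressor, had 4.20, 4.25 and 3.95 with DOC and 5.82 in the sham. Of 16 tested, 9 were below the sham on all 3 DOC arrays, beside 29.1% of all genes. In limma 0 passed, with 6 lower at an unadjusted p under 0.05, beside 18.7% of all genes in either direction.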
